A study of Mus musculus with 4 samples.

Results

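The ER stress and ATF4 response genes are 39 genes known to answer protein misfolding in the endoplasmic reticulum (ER) or shortage of amino acids. Members were chosen by name, and a gene was taken when its array name, or the symbol matched to its RefSeq accession, was on the list. All 39 were found among the 26793 gene names of the array, on 66 probes. They were divided by function into 21 ER chaperone and degradation genes and 18 ATF4 and amino acid genes.

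When misfolded proteins collect in the ER, the sensors IRE1, ATF6 and PERK start the unfolded protein response. IRE1, through splicing of Xbp1, and ATF6 switch on chaperones and the machinery that exports misfolded proteins for degradation. PERK phosphorylates the translation factor eIF2-alpha, which slows protein synthesis while favouring translation of the factor ATF4. Other kinases of eIF2-alpha, which sense amino acid shortage, double-stranded RNA or haem deficiency, lead to ATF4 without the ER sensors, so ATF4 targets are also known as the integrated stress response. Saturated fatty acids are known inducers of ER stress in liver cells.

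The cells were IMS/N, a hepatic stellate cell line from livers of normal 129/Sv mice that was immortalized by SV40 infection. The series asks whether stem cells from adipose tissue (ADSCs) restore stellate cells that palmitic acid (PA), a saturated fatty acid, has activated. All 4 conditions used this single line. The control received neither PA nor ADSC medium, the PA condition received PA alone, the ADSC medium condition received medium from cultured ADSCs alone, and the last condition received PA and ADSC medium. The ADSCs came from inguinal subcutaneous fat of male C57BL/6J mice aged 8 to 10 weeks. The labels state neither the dose of PA nor the exposure time, and do not say whether the control received a vehicle. Each condition was hybridized to 1 single-colour Agilent array, so no difference below carries a p-value.

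All 39 members, and all 66 of their probes, were well above background on the 4 arrays. Levels are log2 intensities after quantile normalization, a difference is one of log2 levels unless it is called a fold, and the probe with the highest mean level stands for a gene. Levels of different probes are not comparable with each other. No member was printed on replicate spots, and the only available error came from 245 other probes printed on 10 spots per array. A pair of their spots differed with an SD of 0.0799 for levels from 7 to 9, 0.0668 from 9 to 11, 0.0596 from 11 to 13 and 0.0605 above 13. It covers the measurement on the array and not the variation between cultures. RNA came from whole cultures, in which fewer cells of a type and less RNA per cell cannot be told apart.

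Between 67.5% and 70.0% of probes were well above background on each array, and the 75th percentile of the intensity was 476 on the control array, 602 with PA, 473 with ADSC medium and 518 with both. Of 15 stellate markers, 11 were well above background on every array, among them Acta2, Col1a1 and Vim. The other stellate markers, Lrat, Reln, Hand2 and Gfap, were not above background on any array. The defining macrophage markers Ptprc and Adgre1, the hepatocyte markers Alb and Apoa1, the endothelial markers Pecam1 and Cdh5 and the biliary marker Epcam were also not above background on any. Other markers of these lists were well above background on all 4 arrays: 4 of 10 for macrophages (Cd68, Csf1r, Lyz2 and Marco), 3 of 8 for hepatocytes (Serpina1d, Cyp3a11 and Hnf4a), 4 of 7 for endothelium (Kdr, Tek, Stab2 and Vwf) and 3 of 4 for bile ducts (Krt7, Krt19 and Sox9). Their part in the results was not tested. Summed intensities over the lists were 175553 to 199082 for stellate markers, 274 to 389 for macrophage, 41.1 to 49.4 for hepatocyte, 899 to 1341 for endothelial and 932 to 1216 for biliary markers.

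With PA, the ATF4 and amino acid genes were mostly higher, and the ER chaperone and degradation genes lay on both sides of control. Against control, 15 of the 18 ATF4 and amino acid genes were higher by any amount (all genes compared: 48.5%), with a median difference of 0.23. Of the 21 ER genes 12 were higher and 9 lower (all genes compared: 51.3% lower), with a median of 0.05, against -0.01 over all genes compared. At least 1.5-fold higher were 3 ATF4 genes, Atf3, Cth and Gdf15, and none of the ER genes (all genes compared: 2.92%). No member was at least 1.5-fold lower (all genes compared: 3.27%). Among the 8488 genes at least as bright as the dimmest member, 1.68% were at least 1.5-fold higher and 1.35% at least 1.5-fold lower. This background was added after the data had been seen. When each array was instead scaled by its 75th percentile, 12 of the 18 ATF4 genes were higher with a median of 0.18. The ER median was then -0.04 and the median over all genes compared -0.05, and Gdf15 at 0.57 was no longer past 1.5-fold.

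**Figure D1:**
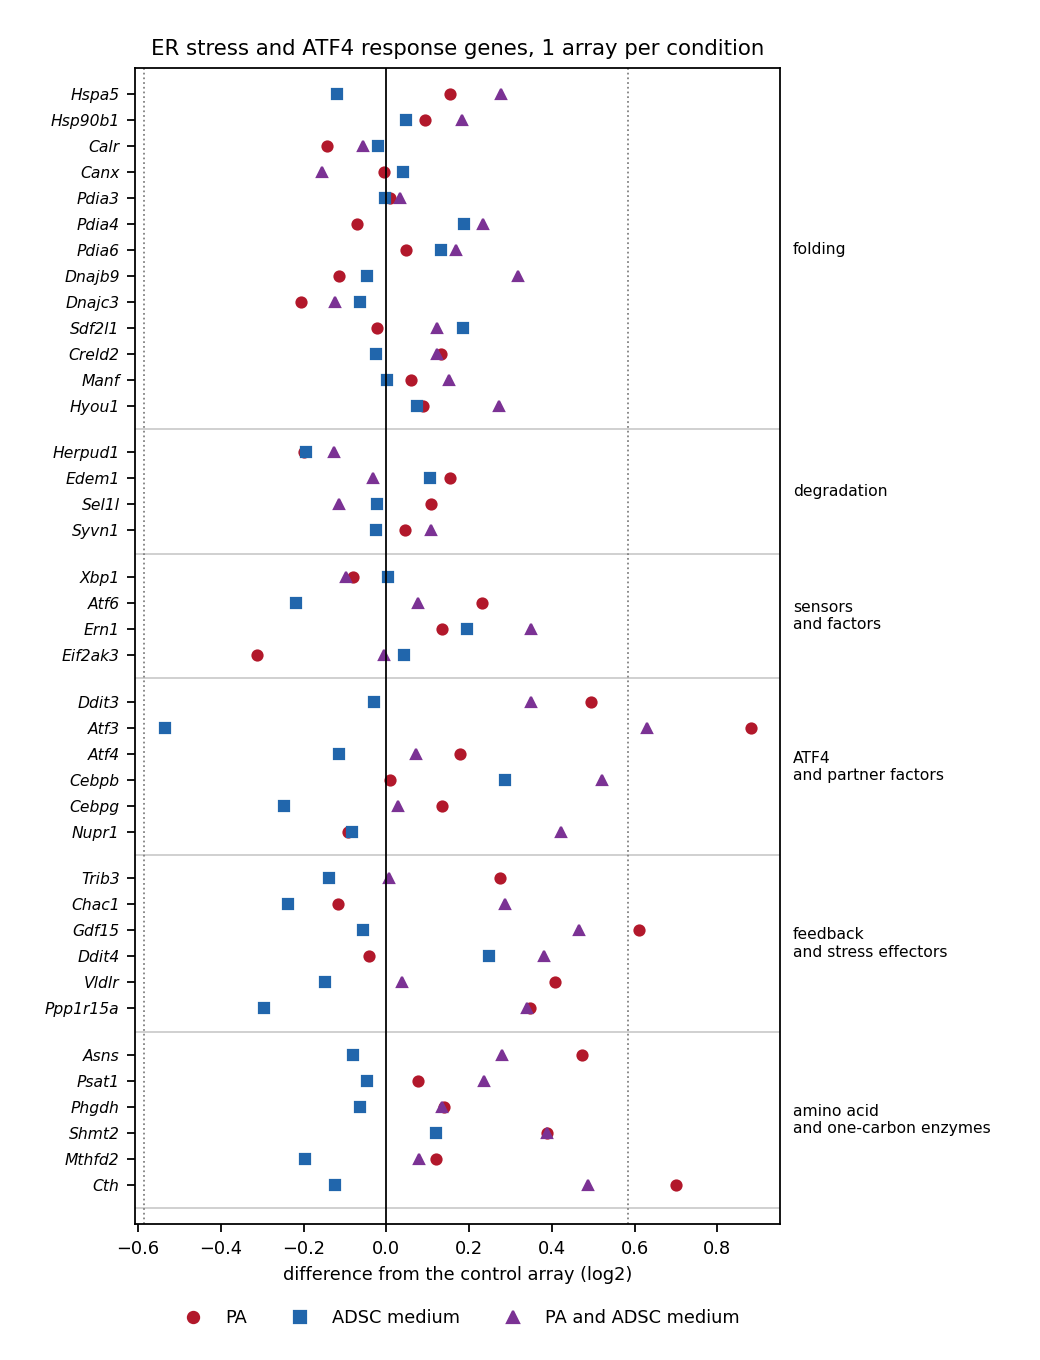
Difference of each of the 39 members from the control array (x axis, log2), for the PA array (circles), the ADSC medium array (squares) and the array with both (triangles), grouped by role, with dotted lines at 1.5-fold. Only Atf3, Cth and Gdf15 lie past the upper line, at 0.88, 0.70 and 0.61 with PA, and every ER member lies between the lines.

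Among the 13 folding genes, the median difference of PA from control was 0.01. Hspa5 encodes BiP, the main ER chaperone of the HSP70 family, and its probe lies at chr2:34631630-34631689 (mm9). Its level was 15.19 in control, 15.35 with PA, 15.07 with ADSC medium and 15.47 with both. Both PA arrays were above both arrays without PA, by 0.15 (1.11-fold) without and 0.40 (1.32-fold) with ADSC medium; the first of these values was -0.01 under 75th percentile scaling. Hsp90b1, the ER member of the HSP90 family, and Hyou1, a large chaperone that acts as an exchange factor for BiP, differed by 0.09 each with PA alone. A second Hsp90b1 probe (level 13.69 in control) was at -0.13. The lectin chaperones Calr and Canx, which hold glycoproteins during folding, differed by -0.14 and -0.01.

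The disulphide isomerases showed little difference with PA, at 0.01 for Pdia3, -0.07 for Pdia4 and 0.05 for Pdia6. The BiP cofactors were level or lower, with Dnajb9 at -0.11, Dnajc3 at -0.21 and Sdf2l1 at -0.02. Dnajc3, a co-chaperone of the ER lumen, had 4 probes, which lay between -0.30 and -0.16. Creld2 and Manf, small secretory proteins known as markers of ER stress, were at 0.13 and 0.06. The folding genes thus held both signs, and the highest of them was at 0.15.

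The 4 genes of ER-associated degradation had a median of 0.08 with PA. Herpud1, a membrane adaptor of the degradation complex, was at -0.20, and Edem1, which takes up mannose-trimmed glycoproteins, at 0.15. The other Edem1 probes were at -0.09 and 0.19. The ubiquitin ligase Syvn1 and its partner Sel1l were at 0.05 and 0.11. Their order depended on the probe: the 3 Sel1l probes ran from -0.16 to 0.11, and a dim second Syvn1 probe (level 4.42 in control) was at 0.43.

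Sensors and factors of the unfolded protein response, 4 genes, had a median of 0.03. Xbp1, whose mRNA is the substrate of IRE1, has its probe at chr11:5424970-5425029 and stood at 9.17 in control, 9.09 with PA, 9.17 with ADSC medium and 9.07 with both. The 4 values lay close together, and the probe does not separate the spliced from the unspliced form. Atf6 was at 0.23 with PA and Ern1, which encodes IRE1, at 0.13. Eif2ak3, which encodes PERK, was at -0.31, the lowest difference among the ER genes. Its 4 levels were 9.29, 8.98, 9.33 and 9.28 in the same order of arrays, so that the PA array alone stood apart, and its second probe was at -0.32.

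Promoters of the ER genes are shown for the 19-base ER stress element, a site bound by NF-Y and ATF6. RefSeq promoter windows (GRCm38.p6, 250 bases before to 50 after the gene start, 300 bases in all) were at hand for 35 members, 18 ER and 17 ATF4 genes, all but Atf6, Manf, Hyou1 and Cth. The element, searched on both strands as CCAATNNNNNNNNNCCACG, was in 0.119% of 32851 windows. It was in 8 of the 18 ER genes (Hspa5, Hsp90b1, Calr, Canx, Pdia6, Dnajc3, Creld2 and Syvn1) and in none of the 17 ATF4 genes. The shorter second form of the element was in 0.0365% of windows and among members in Herpud1. Capitals mark the element in the stretches below, which read along the gene's strand; on the reverse strand it appears as its complement. Hspa5 is at chr2:34772000-34772068 (plus strand, bases -90 to -22 from the gene start), Creld2 at chr15:88819495-88819563 (plus, -151 to -83) and Syvn1 at chr19:6046507-6046575 (plus, -69 to -1). Herpud1 is at chr8:94386292-94386412 (plus, -137 to -17), and its first capitals are the element of the ATF4 genes described further on.
Hspa5: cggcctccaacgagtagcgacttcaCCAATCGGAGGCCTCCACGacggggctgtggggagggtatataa
Creld2: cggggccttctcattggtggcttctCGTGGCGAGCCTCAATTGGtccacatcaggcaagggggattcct
Syvn1: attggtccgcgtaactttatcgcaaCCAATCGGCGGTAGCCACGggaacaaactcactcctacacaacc
Herpud1: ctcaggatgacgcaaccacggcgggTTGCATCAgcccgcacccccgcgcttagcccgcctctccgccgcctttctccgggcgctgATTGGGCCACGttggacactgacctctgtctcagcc
The 8 genes with the first form differed by -0.21 (Dnajc3) to 0.15 (Hspa5) between PA and control. A match describes these letters only and is not evidence of binding.

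Of the 6 genes for ATF4 and partner factors, 5 were higher with PA than in control (all genes compared: 48.5%), with a median of 0.16; Cebpb, at 0.01, turned sign under another setting. Atf3, an immediate stress repressor downstream of ATF4, has its probe at chr1:192994547-192994606. Its level was 10.84 in control, 11.72 with PA, 10.30 with ADSC medium and 11.47 with both. Both PA arrays were above both arrays without PA, by 0.88 (1.84-fold) without and 1.17 (2.25-fold) with ADSC medium, and the latter was past 2-fold (all genes compared: 1.26%). No other member was 2-fold higher in any of the 5 comparisons, against 1.09% of all genes compared for PA, 0.533% for ADSC medium, 1.75% for ADSC medium added to PA and 1.81% for both against control. Among genes at least as bright as the dimmest member these shares were 0.86%, 0.13%, 0.66% and 1.15% in the same order. For PA in ADSC medium it was 0.884%.

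Ddit3 encodes CHOP, the factor that links prolonged ER stress to cell death. Its probe spans an interval at chr10:126732518-126732821 that is 304 bases long for a 60-base probe. It read 11.25, 11.75, 11.22 and 11.60 in control, PA, ADSC medium and both. The PA arrays were the higher pair, by 0.50 (1.41-fold) and 0.38 (1.30-fold). Atf4 itself, at chr15:80087079-80087138, read 13.33, 13.51, 13.21 and 13.40. Its difference was 0.18 without and 0.18 with ADSC medium, so the mRNA of the regulator differed less than that of Atf3 or Ddit3. ATF4 is known to be controlled mainly by translation, which the array does not measure.

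With PA alone the other partner factors were closer to control. Cebpb, a partner of ATF4 and CHOP (chr2:167515847-167515905), read 13.21, 13.22, 13.50 and 13.73. It was level with PA alone, at 0.01, and higher on both arrays with ADSC medium. Cebpg, another dimer partner, was at 0.13 with PA. Nupr1, a small chromatin protein induced by stress (chr7:133766978-133767037), read 14.10, 14.00, 14.01 and 14.52, and the array with both treatments alone stood apart.

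Feedback and stress effectors, 6 genes, had a median of 0.31 with PA. Gdf15, a secreted hormone of the TGF-beta family that reports cell stress (chr8:73153471-73153530), read 11.45, 12.06, 11.39 and 11.91. The PA arrays were the higher pair, by 0.61 (1.53-fold) without and 0.52 (1.44-fold) with ADSC medium. Ppp1r15a encodes GADD34, the phosphatase subunit that reverses phosphorylation of eIF2-alpha (chr7:52779582-52779641), and read 9.61, 9.96, 9.31 and 9.95. Its PA difference was 0.35 (1.27-fold) without and 0.63 (1.55-fold) with ADSC medium, the lowest level being that with ADSC medium alone.

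Trib3, a pseudokinase that restrains ATF4 (chr2:152163355-152163414), read 11.96, 12.24, 11.82 and 11.97. Only the PA array stood above the control by more than the spot SD, at 0.28. Vldlr, a lipoprotein receptor, was at 0.41 with PA alone and 0.19 with PA in ADSC medium. Chac1, which degrades glutathione (chr2:119179990-119180049), read 15.06, 14.94, 14.82 and 15.35, so PA alone was slightly below control and the array with both was highest. Ddit4, an inhibitor of mTORC1, was at -0.04 with PA alone.

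All 6 enzymes of amino acid and one-carbon metabolism were higher with PA than in control (all genes compared: 48.5%), with a median of 0.26, although Phgdh and Psat1 turned sign under another setting of the processing. Cth, which makes cysteine from cystathionine (chr3:157557667-157557726), read 11.44, 12.13, 11.31 and 11.92. The PA arrays were higher by 0.70 (1.62-fold) without and 0.61 (1.53-fold) with ADSC medium. Asns, asparagine synthetase (chr6:7625194-7625253), read 14.70, 15.18, 14.63 and 14.98, and its differences were 0.47 (1.39-fold) and 0.36 (1.28-fold); the first was 0.32 under 75th percentile scaling. Shmt2, the mitochondrial serine hydroxymethyltransferase, was at 0.39 and 0.27.

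The serine synthesis enzymes Phgdh and Psat1 were at 0.14 and 0.08 with PA alone. Mthfd2, the mitochondrial folate enzyme, was at 0.12. With ADSC medium present the 3 values were 0.20, 0.28 and 0.28. Cth and Asns thus differed most in both comparisons, and Psat1 least without and Phgdh least with the medium.

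**Figure D2:**
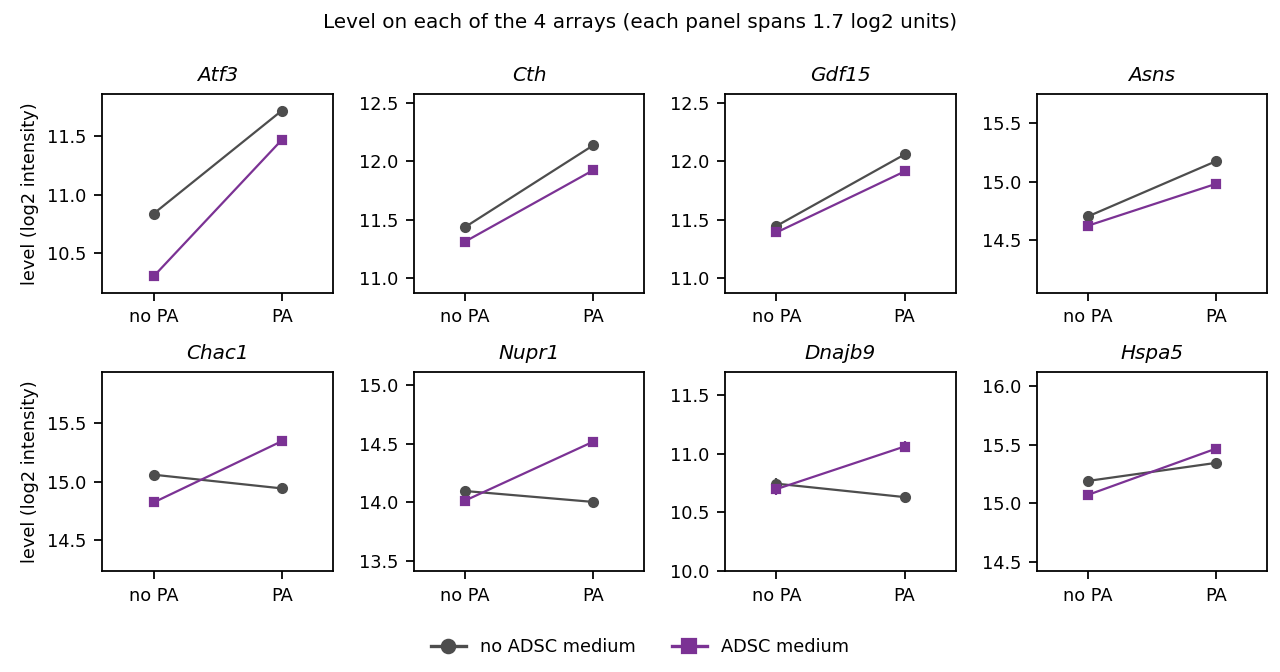
Level (log2 intensity) of 8 members on the 4 arrays, without PA at left and with PA at right in each panel, for cultures without (grey circles) and with ADSC medium (purple squares); error bars, mostly hidden by the points, are the SD of a single spot. Atf3, Cth, Gdf15 and Asns are higher with PA on both lines, while Chac1, Nupr1 and Dnajb9 are higher with PA only in ADSC medium.

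Promoters of ATF4 genes are shown for the 8-base CEBP-ATF response element, the composite site known from Asns and Atf3 to which ATF4 binds with a C/EBP partner. Searched on both strands as TGATGNAA, it was in 3.97% of all windows. Among members it was in 6 of the 17 ATF4 genes (Atf3, Trib3, Chac1, Asns, Vldlr and Nupr1) and in 1 of the 18 ER genes, Herpud1. In the stretches below, capitals mark it as it reads on the gene's strand. Atf3 is at chr1:191183411-191183468 (minus strand, bases -135 to -78), Asns at chr6:7693210-7693257 (minus, -48 to -1), Chac1 at chr2:119351024-119351081 (plus, -218 to -161) and Nupr1 at chr7:126625548-126625605 (minus, -135 to -78), all on GRCm38.p6.
Atf3: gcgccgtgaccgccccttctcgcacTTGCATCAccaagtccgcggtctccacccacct
Asns: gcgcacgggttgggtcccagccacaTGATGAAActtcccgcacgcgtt
Chac1: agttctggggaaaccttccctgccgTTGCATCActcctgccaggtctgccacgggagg
Nupr1: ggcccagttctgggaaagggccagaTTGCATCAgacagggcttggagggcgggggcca
Of the 6 ATF4 genes with a match, Atf3, Asns, Vldlr and Trib3 were higher with PA without ADSC medium, and Chac1 and Nupr1 were not. Chac1 and Nupr1 carry the same 8 letters as Atf3. Gdf15, also past 1.5-fold with PA alone, had no match in its window, which says only that these letters are not in it.

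PA was compared a second time on the other arrays, with ADSC medium on both sides. All 18 ATF4 and amino acid genes were higher by any amount (all genes compared: 47.4%), with a median of 0.28 against -0.02 over all genes compared. Of the 21 ER genes 13 were higher and 8 lower (all genes compared: 52.4% lower), with a median of 0.05. Past 1.5-fold were Atf3, Ppp1r15a and Cth (all genes compared: 3.54%; genes as bright as members: 1.66%), and no ER gene. No member was 1.5-fold lower (all genes compared: 3.14%, genes as bright as members: 1.2%). All 18 ATF4 genes were also higher under 75th percentile scaling, normexp background correction and the mean of detected probes, with medians between 0.26 and 0.28. The settings without a filter on dim probes or with detection on all 4 arrays could not change a member, since all were well above background throughout. With normexp background correction Cth at 0.57 was no longer past 1.5-fold.

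These PA comparisons use separate arrays. In both, 15 of 18 ATF4 genes were higher (all genes compared: 29.7%, genes as bright as members: 33.2%) and none was lower. Under 75th percentile scaling 12 of the 18 were higher and 6 lower in the comparison without ADSC medium. The median over all genes compared was then -0.05. Atf3 and Cth were past 1.5-fold in each (all genes compared: 1.47%). Of the 21 ER genes 10 were higher in both, 6 lower in both (all genes compared: 33.9%) and 5 had opposite signs. The largest ER difference in ADSC medium was that of Hspa5 at 0.40, followed by Dnajb9 at 0.36 and Atf6 at 0.30.

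**Figure D3:**
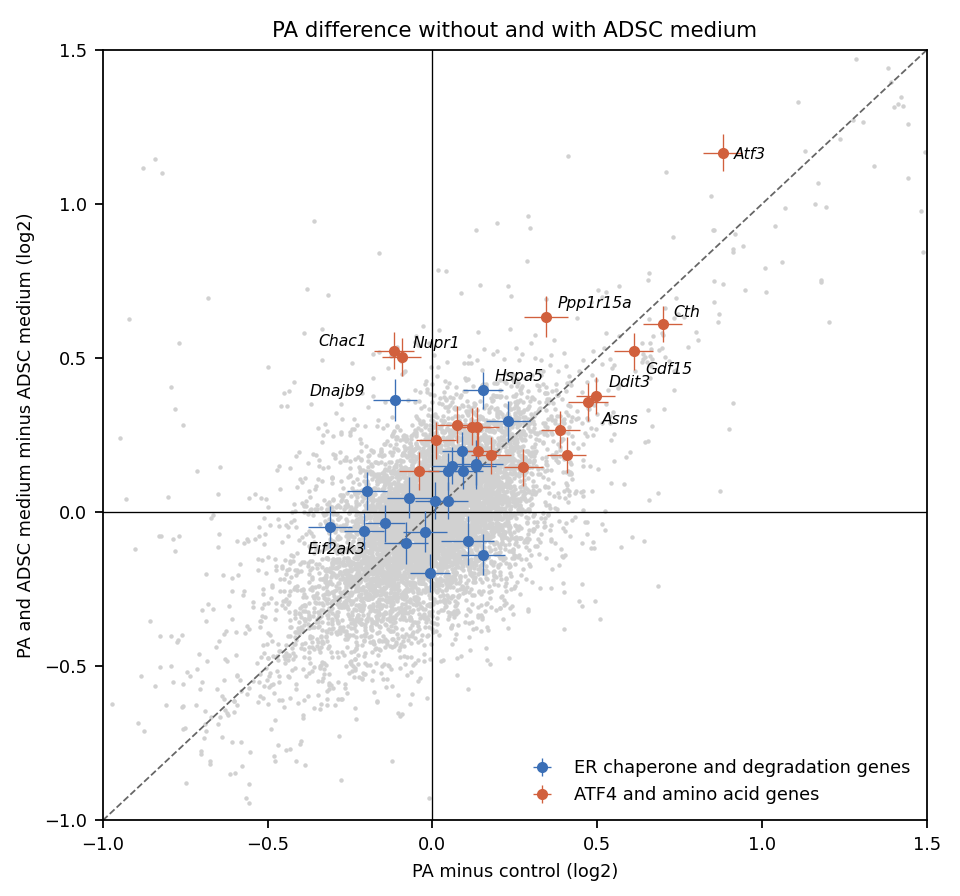
Difference of PA from control (x axis, log2) against that of PA in ADSC medium (y axis, log2) for the 21 ER genes (blue), the 18 ATF4 genes (orange) and 8386 other genes at least as bright as the dimmest member (grey; 63 lie outside the axes); error bars are the SD of a difference between single spots, and equal differences lie on the dashed line. Of the ATF4 genes 15 lie right of and above 0, while Chac1 and Nupr1 lie left of 0 and above 0.5 on the y axis.

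ADSC medium alone left the ER genes near control and the ATF4 genes slightly below it. The single ADSC medium array is also the baseline for PA in ADSC medium, so an error of that array enters both with opposite sign. Of the 18 ATF4 genes 15 were lower (all genes compared: 51.6%) and 3 higher, with a median of -0.10 against -0.01 over all genes compared. Of the 21 ER genes 11 were higher (all genes compared: 48.1%) and 10 lower, with a median of 0.00. None of the 39 was at least 1.5-fold higher (all genes compared: 2.31%) or lower (1.29%). Among genes as bright as members the shares were 0.73% and 0.165%. Atf3 was the lowest at -0.54 (1.45-fold lower), followed by Ppp1r15a at -0.30 and Cebpg at -0.25. The 3 higher genes were Cebpb at 0.29, Ddit4 at 0.25 and Shmt2 at 0.12.

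ADSC medium given together with PA was compared with PA alone, the contrast closest to the question in the series title. This contrast shares the single PA array with PA against control, so an error of that array enters both with opposite sign. Of the 18 ATF4 genes 12 were lower (all genes compared: 53.5%), 5 higher and Shmt2 equal, with a median of -0.07 against -0.02 over all genes compared. Of the 21 ER genes 15 were higher (all genes compared: 46.4%) and 6 lower, with a median of 0.09. None was past 1.5-fold in either direction (all genes compared: 5.25% higher, 3.72% lower). Among genes as bright as members the shares were 2.2% and 0.707%. The lowest were Vldlr at -0.37, Trib3 at -0.27 and Atf3 at -0.25, while Cth and Asns were at -0.21 and -0.19. On the array with both, these 5 genes were still at or above control, Trib3 by 0.01.

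The members highest with both treatments relative to PA alone were Nupr1 at 0.52, Cebpb at 0.51, Dnajb9 at 0.43, Ddit4 at 0.42, Chac1 at 0.40, Pdia4 at 0.31 and Eif2ak3 at 0.31. Dnajb9 encodes ERdj4, a BiP cofactor and target of spliced XBP1 (chr12:45307313-45307372), and read 10.74, 10.63, 10.70 and 11.06 in control, PA, ADSC medium and both. The array with both stood above the other 3, and all 3 probes of the gene lay between 0.43 and 0.52. In the 2 ADSC medium comparisons, which use separate arrays, 12 of 18 ATF4 genes were lower in both (all genes compared: 34.1%). Cebpb and Ddit4 were the ATF4 genes higher in both (all genes compared: 28.8%), and 8 of 21 ER genes were.

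The adipose marker list had a higher summed intensity with ADSC medium, carried by Fabp4 and Cd34. The sum was 9565 in control, 9575 with PA, 12657 with ADSC medium and 14229 with both, and 5 of its 9 genes were well above background on all arrays. Fabp4 was at 12.07 and 11.99 with the medium against 11.46 and 10.95 without, and Cd34 at 12.94 and 13.23 against 12.57 and 12.73. The 3 other detected markers were not higher: Pi16 was at 4.73 and 4.82 with the medium against 4.79 and 4.82 without, Pparg at 8.73 and 8.68 with the medium against 9.19 and 9.36 without, and Cebpa at 5.82 and 6.49 against 6.03 and 6.79. Of the 5 detected markers 2 were higher and 3 lower with ADSC medium than in control, and the same counts held for both agents against PA alone. The defining adipocyte markers Adipoq, Plin1 and Lep were not above background on any array. The part of these genes in the ADSC medium differences was not tested.

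With both treatments against control, all 18 ATF4 genes were higher (all genes compared: 46.5%), with a median of 0.31. Trib3, the lowest, was at 0.01, and its second probe was at -0.13. Atf3, at 0.63 or 1.55-fold, was past 1.5-fold (all genes compared: 4.68%, genes as bright as members: 2.69%). It was followed by Cebpb at 0.52, Cth at 0.49 and Gdf15 at 0.47. Of the 21 ER genes 13 were higher and 8 lower (all genes compared: 53.3%), with a median of 0.11, led by Ern1 at 0.35, Dnajb9 at 0.32, Hspa5 at 0.28 and Hyou1 at 0.27. A dim second Hyou1 probe (level 3.37 in control) was at 0.69. None was 1.5-fold lower (all genes compared: 3.67%, genes as bright as members: 1.35%).

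**Figure D4:**
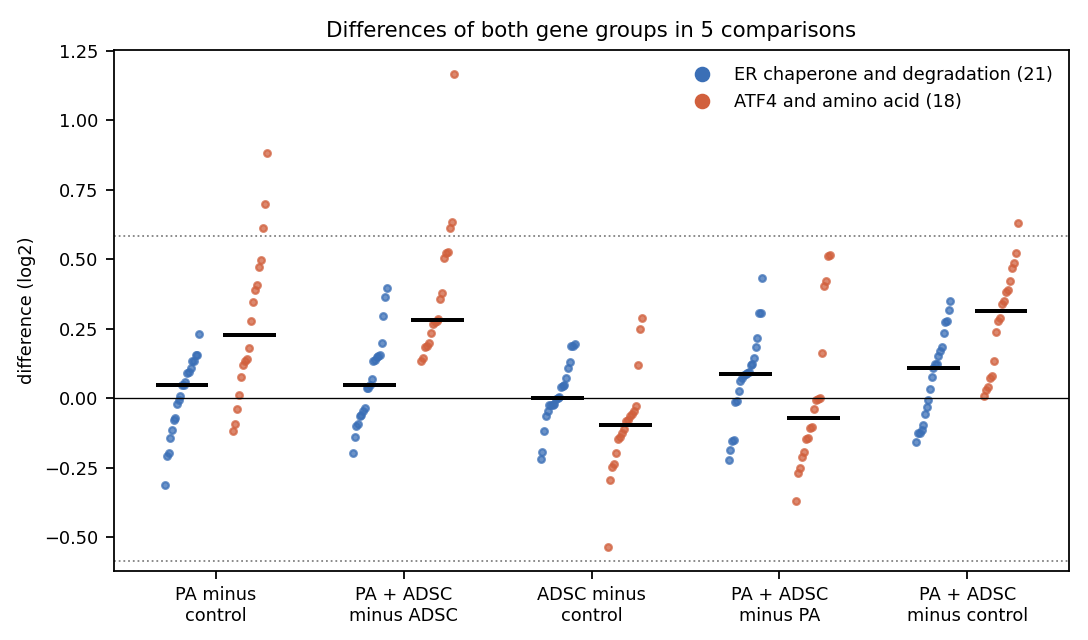
Differences (y axis, log2) of the 21 ER genes (blue) and the 18 ATF4 genes (orange) in the 5 comparisons, with 1 point per gene in ascending order, black bars at the group medians and dotted lines at 1.5-fold. The ATF4 medians are 0.23 and 0.28 with PA, -0.10 and -0.07 with ADSC medium and 0.31 with both, and the ER medians lie between 0.00 and 0.11.

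The PA difference in ADSC medium minus that without it was at least 1.5-fold for Chac1, at 0.64, and Nupr1, at 0.60 (all genes compared: 3.92%; genes as bright as members: 0.966%). The PA difference of Chac1 was -0.12 without the medium and 0.52 with it, and that of Nupr1 was -0.09 and 0.50. Ddit4 also had opposite signs, at -0.04 and 0.13, the first being smaller than its spot SD of 0.0605. No ATF4 gene was higher without and lower with the medium. Among ER genes Dnajb9 (-0.11 and 0.36), Herpud1 (-0.20 and 0.07) and Pdia4 (-0.07 and 0.05) were lower without and higher with the medium. The 0.07 of Herpud1 was close to its spot SD of 0.0605. For Pdia4 the 0.05 was smaller than its spot SD of 0.0668 and turned sign in another setting. Edem1 (0.15 and -0.14) and Sel1l (0.11 and -0.09) were higher without and lower with the medium, but this depended on the probe. An Edem1 probe with level 9.09 in control was at -0.09 and 0.09, and a dimmer probe at 0.19 and -0.09. The other Sel1l probes were lower in both comparisons, at -0.11 and -0.05 and at -0.16 and -0.01. With normexp background correction Nupr1 was at 0.51, below 1.5-fold, and Chac1 was past it in every setting.

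Lists of other genes of the same pathways were read in the same way. Of 71 further ER genes compared (translocation, glycosylation, transport and degradation), 34 were higher and 37 lower with PA (all genes compared: 48.5% and 51.3%). Their median was -0.01, and none was past 1.5-fold higher (all genes compared: 2.92%) or lower (3.27%). In ADSC medium the counts were 33 and 38 (all genes compared: 47.4% and 52.4%) with a median of -0.02. Ero1a, the oxidase that recharges disulphide isomerases, was at 0.45 and 0.39, and Sec24d, a coat protein of transport vesicles, at -0.56 with PA alone. Ero1a is also counted in the list of further ATF4 targets below.

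Of 40 further ATF4 targets 32 were higher and 8 lower with PA in each of the PA comparisons (all genes compared: 48.5% and 47.4% higher), with medians of 0.17 and 0.24. Slc7a11, the cystine transporter subunit, was at 0.55 and 0.48, and its partner chain Slc3a2 reached 0.70 (1.62-fold) in ADSC medium, at 14.97 against 14.28. Klhl24 was at -0.68 with PA alone and was the only gene of this list past 1.5-fold lower (all genes compared: 3.27%). With ADSC medium added to PA, 3 of the 40 were past 1.5-fold higher (all genes compared: 5.25%). They were Klhl24 (1.06), the amino acid transporter Slc38a2 (0.99) and the secreted Stc2 (0.99). In the same comparison 23 of the 40 were lower (all genes compared: 53.5%). Stc2 was also at 0.84 with ADSC medium alone.

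Aminoacyl-tRNA synthetases, which charge tRNAs and include ATF4 targets, were higher with PA in 18 of 19 cases without ADSC medium (median 0.14; all genes compared: 48.5%) and in 16 of 19 with it (median 0.11; all genes compared: 47.4%). Eprs was the highest without the medium at 0.42. A list drawn up around eIF2-alpha held 7 genes: Eif2s1, Eif2b5, Eif2ak1, Eif2ak2, Eif2ak4, Ppp1r15b and Ncl. Of these, Eif2ak2 alone was past 1.5-fold with PA, being higher in both comparisons (all genes compared: 2.92% and 3.54% higher). It encodes PKR, the kinase that senses double-stranded RNA, and its level was 11.93 in control, 13.06 with PA, 11.68 with ADSC medium and 12.86 with both. The PA arrays were the higher pair, by 1.13 (2.19-fold) and 1.17 (2.26-fold), while Eif2ak4, which encodes the amino acid sensor GCN2, was at 0.24 and -0.13. Of 12 cell death genes linked to ER stress, Pmaip1, which encodes Noxa, was past 2-fold higher, at 1.48 and 1.32 (all genes compared: 1.09% and 1.26%). It was dim, at 4.93 in control, 6.41 with PA, 5.39 with ADSC medium and 6.71 with both. The SD between spots was 0.146 for levels from 5 to 7. Bcl2, which opposes cell death, was at -0.63 in ADSC medium (all genes compared at least 1.5-fold lower: 3.14%).

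The authors' deposited table of genes higher with PA than in control holds 1575 gene names (5.88% of all), and 3 members were in it (7.69% of members), Atf3, Cth and Gdf15. Their deposited table of genes higher with PA than with PA and ADSC medium holds 920 gene names (3.43%) and no member. Both were chosen on these arrays and are not independent of the differences above.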

How the data were processed

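The deposited values were spot intensities (processed signal) of 4 Agilent arrays, design 014868 with annotation on mm9, read by Feature Extraction 12.1.1.1 under protocol GE1_105_Dec08 on 1 slide in 1 scan, per the file headers. The authors' scanner software had subtracted background and removed trends within each array, and quantile normalization and R 3.5.1 are named by the design text and the submitters' processing notes. RNA was extracted and labelled with Cy3 per the labels' protocols. The authors also deposited 2 lists of chosen probes, 1580 and 920 in number, whose threshold the sources used here do not give.

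Control spots and outlier spots (82 to 104 per array) were left out, intensities were taken to log2, spots of a probe were averaged, and 41146 of 41174 probes were quantile-normalized by limma 3.58.1, under R 4.3.3. No spot was saturated. A probe was well above background when flagged so on more than 50% of its spots. Symbols were matched by RefSeq accession for 28680 probes. A gene entered a comparison when well above background on at least 1 of the 2 arrays; all members passed. Probe positions are on mm9; exon and UTR annotation on that build was not used here. The rest used Python 3.11.15 (matplotlib 3.10.9, pandas 2.3.3, numpy 2.4.6, scipy 1.17.1). A quantile step and the calculation of differences were tested on data simulated with spot noise. That test did not exercise the choice among probes of a gene or probes dim on a single array.

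With 1 array per condition no test was run, and the number of arrays limits the precision. A model with PA and ADSC medium as additive terms would leave 1 residual degree of freedom, the non-additive part that the text describes, and was not fitted. Members and lists were chosen with earlier results of these data known. Values on every array are given for the 10 members with the largest absolute difference in any of 5 comparisons and for Hspa5, Xbp1, Atf4, Ddit3, Trib3 and Asns. Eif2ak3 was added after its values were seen. Of other pathway lists, values are given for at most 3 genes per comparison. Outside this limit, the eIF2-alpha list is named in full and cell type markers are named by detection. Eif2ak4 with PA in ADSC medium was not among the 3 largest differences of its list. The share among genes at least as bright as the dimmest member was added after seeing the data. Alternatives were 75th percentile scaling, normexp background correction (offset 50), no filter on dim probes, detection on all 4 arrays, the mean of detected probes and a 2-fold threshold.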

Additional observations from a re-analysis of the deposited data

Results flagged for a closer look

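Chac1 and Nupr1 differed with PA in opposite directions without and with ADSC medium, by at least 1.5-fold between the conditions. The share at least 1.5-fold higher was 3.92% of all genes compared and 0.966% of genes as bright as members. For Chac1 the PA difference in ADSC medium exceeded that without it by 0.64, and for Nupr1 by 0.60. With normexp background correction the value of Nupr1 was 0.51, below 1.5-fold. The SD of such a value from spot noise was 0.0855 for each. With 1 array per condition the difference between conditions was not tested.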

How the results depend on the processing

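The ER median for PA against control was 0.05 as reported, -0.0443 with 75th percentile scaling and -0.0180 with the mean of detected probes. The medians over all genes compared were -0.00786, -0.0512 and -0.0121 in the same order. All other ER and ATF4 group medians of the 5 comparisons kept their sign under the alternatives. The settings without a filter on dim probes or with detection on all 4 arrays could not change a member, since all were well above background throughout. The alternatives reuse the same spots and say nothing about other cultures. Single members turned sign in at least 1 setting in 10 of 39 cases for PA against control, 4 for PA in ADSC medium, 4 for ADSC medium against control, 6 for ADSC medium added to PA and 4 for both against control. Over all genes, the counts at least 1.5-fold higher and lower with PA than control were 532 and 596 as reported, 457 and 768 with 75th percentile scaling, 221 and 164 with normexp and 1585 and 1510 without the filter. For both against PA alone they were 985 and 698, 1290 and 462, 344 and 101, and 1877 and 1631. In the same order they were 653 and 579, 663 and 546, 248 and 143, and 1629 and 1586 for PA in ADSC medium. For ADSC medium against control they were 420 and 234, 455 and 195, 106 and 21, and 1557 and 1210, and for both against control 855 and 670, 901 and 579, 381 and 143, and 1971 and 1672. No replicate block was fitted because the labels carry no replicate numbers. Spot noise was measured on other probes, and no value covers the variation between cultures, so small differences cannot be told apart from it.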
